A study of Homo sapiens with 6 samples.

Results

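The 60 listed genes lie on human chromosome 4, from LAP3 on the short arm to SORBS2 near the end of the long arm. They were selected on measured values of these same arrays, because chromosome 4 was the chromosome whose genes shifted most between the cybrids compared here. Of the 60 genes, 58 had at least 1 probe set that the platform table maps to a single symbol, and NEK1 and EDNRA were not analysed here. The 58 are part of 793 genes of chromosome 4 and of 19775 genes measured in all. Since the choice used the very contrast described below, every value of these genes is a description and none is a test.

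Expression was measured on 6 Affymetrix arrays, 3 of each of 2 cybrids. A cybrid is a cell made by fusing an enucleated cell, which brings its mitochondria, with a cell that has lost its mitochondrial DNA, which brings the nucleus. In both cybrids the nucleus came from 143B p0, the form of the thymidine kinase-deficient osteosarcoma line 143B without mitochondrial DNA. The mitochondria came from MCF10A, a non-cancerous breast epithelial line, in 10A/143B, and from MDA-MB-468, a metastatic breast cancer line, in 468/143B. Donor cells had been enucleated by overnight actinomycin-D, both cybrids were selected with bromodeoxyuridine in medium lacking uridine, and RNA of each was extracted in triplicate. The labels do not say whether a cybrid was 1 clone or a pool of clones. The 143B/143B cybrid that the labels also name was not analysed here. The comparison asks how nuclear gene expression differs between cybrids with mitochondria of 2 sources and a nucleus from the same line. Each source is represented by 1 cybrid, so the source and the history of the cybrid after fusion cannot be told apart.

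Genes of a chromosome have no common function as a rule. What they share is 1 DNA molecule, so that gain or loss of a chromosome or an arm alters the dosage of many neighbours at a time, and osteosarcoma lines commonly carry rearranged chromosomes. DNA was not measured here, so whether copy number differed between the cybrids was not tested. A gene's value is given below as array intensity per probe set, and differences are log2(intensity + 16) in 10A/143B minus that in 468/143B, with the standard error (SE) of a linear model fitted to all genes and n = 3 arrays per group. The offset of 16 makes differences of dim genes smaller than they would be as plain ratios. Levels of different probe sets are not compared.

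Before the results, 1 property of the arrays has to be given. Replicates 2 and 3 were nearly the same in both cybrids, with an SD of their log2 difference of 0.07 in 10A/143B and 0.09 in 468/143B over 5711 bright genes, against 0.23 to 0.27 for differences from replicate 1. Nothing says that the replicates came from separate cultures, so the SE measures a spread that may be technical. Counts are therefore also given with replicates 2 and 3 of each cybrid averaged to 1 sample. The median intensity of an array was 20.4 to 24.4. The control probe sets of ACTB gave a ratio of 3′ over 5′ signal, which rises as RNA is degraded, of 1.59 to 1.92 in 10A/143B and 1.18 to 1.67 in 468/143B, and its part in the results was not tested. Markers of osteoblasts and mesenchyme, 6 in number, had a summed intensity of 10286 to 11090 in the former and 10761 to 12093 in the latter, with 0 called higher and 2 (RUNX2 and SPARC) lower. Most of these sums came from the mesenchymal filament gene VIM, which was bright on all arrays, and from SPARC. COL1A2 (4.56 to 13.1), ALPL (4.66 to 46.5) and COL1A1 (41.6 to 107) were low over the arrays of both cybrids. For 4 basal epithelial markers the sums ran from 650.1 to 879.4 and from 555.4 to 668.8, nearly all from LAMB3, and KRT5 stood at 1, the lowest intensity deposited, on 3 of 3 and 2 of 3 arrays. For 6 further epithelial markers they ran from 122.5 to 140.4 and from 116.5 to 142.1, with 0 called higher and 1 (KRT19) lower. The endothelial marker PECAM1 was called higher, with 149 to 158 in 10A/143B and 94.4 to 126 in 468/143B, and the blood cell marker PTPRC had 7.36 to 17.4 and 7.21 to 22.6 and was not called. The part of these markers in the results was not tested. Intensity measures RNA of the whole culture, so that fewer cells of a kind and less RNA per cell cannot be told apart.

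Start regions are shown for 3 of the genes, because they place the finding in sequence. N4BP2 had the largest difference of the 58 on the probe sets used, and SCLT1 the smallest. LARP7, chosen after its values were seen, starts close to a gene outside the list. The ranks depend on the processing. With an offset of 1, ATP8A1 (2.90) passed N4BP2 (2.60), and with 64 OTUD4 (1.76) passed it (1.32). Another probe set of SCLT1 gave 1.98. The windows are those of RefSeq on GRCh38.p14 and run from 250 bases before to 50 bases after the start, 5′ to 3′ on the gene's strand. That of N4BP2 is chr4:40056600-40056899 on the plus strand, with the matches to GGGCGG on either strand in capitals. That of SCLT1 is chr4:129093490-129093789 on the minus strand, with the 173 bases from the start of the divergent gene C4orf33 to its own start in capitals. That of LARP7 is chr4:112636893-112637192 on the plus strand, with the 234 bases from the start of the divergent gene ZGRF1 to its own start in capitals.
N4BP2: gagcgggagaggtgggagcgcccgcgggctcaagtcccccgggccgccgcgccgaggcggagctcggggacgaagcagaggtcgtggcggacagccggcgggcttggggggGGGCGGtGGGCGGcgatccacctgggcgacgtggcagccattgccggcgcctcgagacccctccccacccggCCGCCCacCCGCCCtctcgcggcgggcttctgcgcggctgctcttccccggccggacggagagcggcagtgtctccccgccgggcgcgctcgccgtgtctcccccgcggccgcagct
SCLT1: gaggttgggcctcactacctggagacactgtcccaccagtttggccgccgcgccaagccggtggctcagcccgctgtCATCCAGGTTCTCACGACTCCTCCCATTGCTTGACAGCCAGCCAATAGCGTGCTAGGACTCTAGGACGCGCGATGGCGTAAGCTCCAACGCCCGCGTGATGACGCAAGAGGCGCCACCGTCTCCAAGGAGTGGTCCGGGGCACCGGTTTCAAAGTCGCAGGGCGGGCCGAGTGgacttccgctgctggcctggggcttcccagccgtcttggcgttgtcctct
LARP7: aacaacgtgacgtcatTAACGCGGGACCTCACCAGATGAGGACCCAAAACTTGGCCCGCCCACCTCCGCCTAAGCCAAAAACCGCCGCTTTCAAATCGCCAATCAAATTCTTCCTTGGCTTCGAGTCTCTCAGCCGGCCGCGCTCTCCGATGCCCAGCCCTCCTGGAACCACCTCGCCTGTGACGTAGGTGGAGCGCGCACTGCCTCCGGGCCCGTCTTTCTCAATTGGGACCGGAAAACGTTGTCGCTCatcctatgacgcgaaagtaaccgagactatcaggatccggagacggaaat

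Of the 58 genes, 53 had such a window in RefSeq. GGGCGG, the box bound by SP1 and its relatives, was found on either strand in 40 of the 53 (75.5%) and in 44.6% of all 27305 windows. CGGAAG, a core that ETS factors bind, was found in 17 (32.1%) and in 19.9% of all. CCAAT stood in 19 (35.8%) and in 35.7% of all, and TATAAA in 1 (1.89%) against 12.0%. The median GC content was 66% against 58.3%, and the median number of CG pairs 26 against 14. The motifs were searched on both strands, and overlapping matches were counted once per window. All windows include those of non-coding genes and of genes with low signal, so these shares describe composition only.

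Most of the 58 genes had more signal in 10A/143B on each array. Measured from each gene's own mean over 6 arrays, the median of the 58 was 0.53, 0.38 and 0.42 (log2) on the 10A/143B arrays of replicates 1, 2 and 3, and -0.42, -0.43 and -0.47 on those of 468/143B. The 10A/143B arrays had 50 to 51 of the 58 genes above the gene's own mean and the 468/143B arrays had 5 to 8. Over all genes these medians lay between -0.04 and 0.02. Between arrays of the same replicate number, the median difference of the 58 was 0.87, 0.83 and 0.97 for numbers 1, 2 and 3, with 51, 52 and 51 genes above 0.

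**Figure D1:**
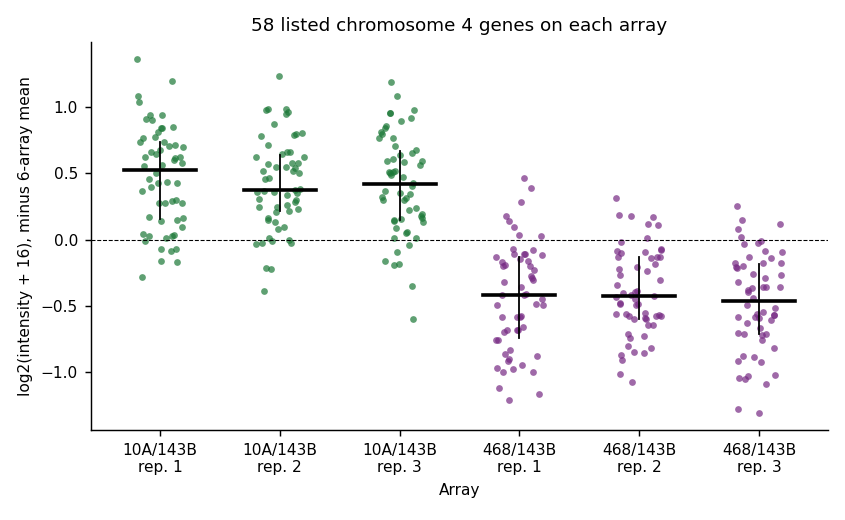
Log2(intensity + 16) of the 58 chromosome 4 genes on each of the 6 arrays, as the deviation from the gene's mean over all arrays (1 point per gene, spread sideways for legibility; black bars give the median and the line the quartiles; green 10A/143B, purple 468/143B). The medians lie between 0.38 and 0.53 on the 10A/143B arrays and between -0.47 and -0.42 on the 468/143B arrays.

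The median difference of the 58 genes was 0.96, with quartiles of 0.29 and 1.32, and 51 of the 58 lay above 0. Over all genes the median was -0.02 and the quartiles were -0.29 and 0.30. The limma fit called 43 of the 58 genes higher in 10A/143B and 2 lower, where it called 19.9% of all genes higher, 15.7% lower and 35.6% in either direction. With replicates 2 and 3 averaged, 39 were higher and 0 lower, beside 13.8% and 8.9% of all genes, and the calls lost were those of LAP3, PGM2, RAB33B, HMGB2, ANXA5 and SCLT1. The arrays of the cybrids did not overlap for 46 genes that were higher and 3 that were lower, beside 24.2% and 21.6% of all genes. The choice of genes fixes these counts, and nothing is read from them. Calls over all genes were split into 3929 higher and 3113 lower, but into 3322 and 3938 when arrays were centred on their medians, a scaling that puts the median over all genes at -0.12 in place of -0.02. Under that centring 49 of the 58 listed genes lay above 0, with a median of 0.85, and under quantile normalization 48, with a median of 0.89. TBC1D1 and GAB1 turned below 0 under both, and PDLIM3 under the latter. After the offset, the difference was at least 2-fold higher for 28 of the 58 genes and at least 2-fold lower for 0. Over all 19775 genes, 1428 (7.22%) were at least 2-fold higher and 595 at least 2-fold lower. Nothing is read from these counts either.

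On the short arm, the list holds 20 genes from LAP3 to OCIAD1. Their median difference was 1.06, and 18 were called higher and 0 lower. As for the whole list, these counts and those of the later stretches stand beside 19.9% higher and 15.7% lower of all genes, and nothing is read from them. N4BP2, a protein with a nuclease domain that binds BCL3, had intensities of 204, 153 and 129.8 on the 10A/143B arrays and 22.0, 24.6 and 30.5 on the 468/143B arrays. Its groups did not overlap, and the difference was 2.08 ± 0.20, a 4.23-fold higher level in 10A/143B after the offset. ATP8A1, a flippase that moves phospholipids to the inner leaflet of membranes, had 73.0, 121.9 and 117.8 against 15.0, 17.5 and 7.67, also without overlap (2.02 ± 0.24). The 468/143B values of ATP8A1 are near the low end of the arrays, and its other probe sets, both dimmer, gave -0.05 and -0.02. PDS5A, a regulator of the cohesin ring that lies next to N4BP2, differed by 2.01 ± 0.12.

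KLF3, a zinc-finger repressor, was the exception of this stretch. It had 121.9, 109.9 and 104.7 in 10A/143B and 116.2, 128.9 and 98.4 in 468/143B, so that its groups overlapped, and the difference was -0.02 ± 0.14. Its other probe sets gave 1.45, -1.25 and -0.27, and it therefore has no settled direction. The first genes of the stretch in map order had small differences on the probe sets used. They were 0.35 ± 0.06 for the aminopeptidase LAP3 and 0.29 ± 0.07 for the phosphopentomutase PGM2. TBC1D1, a Rab GTPase-activating protein of glucose uptake, had 0.08 ± 0.08. A dimmer probe set of TBC1D1 was called higher at 1.20 ± 0.15, and its others, dimmer still, gave 0.22, -0.09 and 0.35 and were not called. Those of PGM2 gave 0.01 and 0.33 and were not called.

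Further along the short arm most differences were larger on the probe sets used. The actin and myosin regulator LIMCH1 (1.87 ± 0.14), the furry-like gene FRYL (1.91 ± 0.08) and the endoplasmic reticulum protein gene TMEM33 (1.66 ± 0.08) were among the largest. Other bright probe sets gave less for LIMCH1 (0.49 and 0.51) and for TMEM33 (0.61, 0.72 and 0.97). UGDH, which makes UDP-glucuronate for matrix polysaccharides, differed by 1.08 ± 0.09. WDR19, of the transport machinery of cilia, differed by 1.23 ± 0.20 on a dim probe set. Its other probe sets, dimmer still, gave -0.07 and -0.24 and were not called, so its difference rests on that probe set alone. The microtubule-end protein gene SLAIN2 differed by 1.05 ± 0.12. Smaller differences were those of COMMD8 (0.97 ± 0.06), the cullin adaptor KLHL5 (0.70 ± 0.07) and NFXL1 (0.42 ± 0.09). KLHL5 had 2.04 and 2.25 on dimmer probe sets, so the order of these genes holds only for the probe sets used.

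Between OCIAD1 and LARP7, across the centromere and the upper long arm, the list holds only POLR2B, which encodes the second largest subunit of RNA polymerase II. It had 2180 (replicate 1), 2592 and 2684 in 10A/143B and 1261, 1261 and 1305 in 468/143B. The groups did not overlap, and the difference was 0.95 ± 0.08. A further bright probe set of POLR2B gave 0.92. Outside the list, 98 genes of this stretch had a mean log2 level above 7 over all arrays, and their median difference was 0.54, with 89 of 98 above 0.

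From LARP7 to RAB33B the list holds 14 genes, with a median difference of 0.68, of which 9 were called higher and 2 lower. JADE1, a subunit of the HBO1 histone acetyltransferase complex, had 545, 556.4 and 588.1 in 10A/143B and 153.3, 170.1 and 134.4 in 468/143B. The groups lay far apart (1.79 ± 0.10), and further probe sets gave 1.57 and 1.54, but a bright one gave -0.52 ± 0.09. BBS7, of the BBSome that sorts membrane proteins into cilia, had 105, 126 and 133 against 26.5, 39.4 and 34.1, again without overlap (1.48 ± 0.18).

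In the same stretch 3 genes had less signal in 10A/143B. SCLT1, a distal appendage protein of centrioles, had 85.6, 89.9 and 81.0 against 146.0, 138 and 121, without overlap (-0.57 ± 0.13). A further probe set gave 1.98 ± 0.15 and another 0.19, so SCLT1 has no settled direction. PGRMC2, a haem-binding membrane protein, had 367, 246 and 209 against 455, 352 and 391. Its groups overlapped (-0.55 ± 0.19), and its other probe set gave 1.10 ± 0.13. ANXA5, which binds phosphatidylserine, had 2304, 2106 and 2149.8 against 2759, 2778 and 2647. It was lower without overlap on its only probe set (-0.32 ± 0.06), was not called with replicates 2 and 3 averaged, and is bright in both cybrids.

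The other genes of this stretch were higher by varying amounts. LARP7, which holds the 7SK RNA that restrains the elongation factor P-TEFb, differed by 1.39 ± 0.12. UGT8, which makes galactosylceramide, differed by 1.27 ± 0.10, USP53 by 1.25 ± 0.18, and NAA15, of the N-terminal acetyltransferase NatA, by 1.02 ± 0.28. The SE of NAA15 was the widest of the 58. Replicate 1 of 468/143B stood apart, with 172 against 383 and 369.6 on replicates 2 and 3. LARP1B (0.85 ± 0.11), the kinase gene CAMK2D (0.51 ± 0.10) and RAB33B, a GTPase of the Golgi (0.40 ± 0.13), were lower in the order. INTU (0.44 ± 0.20) and the ETS factor gene ELF2 (0.26 ± 0.10) did not pass the threshold.

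After RAB33B to ARFIP1 there are 11 genes, all with a difference above 0 on the deposited scale (GAB1 below 0 under both other scalings). Their median was 1.21, and 8 were called. USP38, a deubiquitinase, had 296, 274 and 269 in 10A/143B and 51.6, 67.2 and 53.1 in 468/143B. OTUD4, of another family of deubiquitinases, had 1046, 982 and 962 against 242, 271 and 234. Neither gene's groups overlapped, and the differences were 2.02 ± 0.13 and 1.94 ± 0.08. The value of OTUD4 rests on 1 bright probe set, and its other 3, all dim, gave 0.02, 0.52 and 0.38 and were not called. GAB1, a docking protein of receptor tyrosine kinases, lies between USP38 and SMARCA5 in the list, with no other measured gene between. It had 58.1, 74.0 and 62.2 against 55.7, 72.0 and 50.9, so that the groups overlapped on this probe set (0.10 ± 0.18). Further probe sets of GAB1, dim as well, were called higher at 0.88 and 0.86, and the others lay between -0.46 and 0.48 and were not called.

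SMARCA5, the ISWI chromatin-remodelling ATPase on the other side of GAB1, differed by 1.60 ± 0.10. The lysine methyltransferase gene SETD7 (1.31 ± 0.07), the vesicle-traffic genes LRBA (1.32 ± 0.14) and ARFIP1 (1.21 ± 0.07), the RNA-binding ring subunit LSM6 (0.77 ± 0.06) and SH3D19 (0.63 ± 0.10) were also higher. FBXW7, the receptor of an SCF ubiquitin ligase for cyclin E and MYC, had 0.29 ± 0.16 on its brightest probe set, which did not pass, and 1.80, 1.67 and -0.10 on 3 dimmer ones. TMEM184C (0.28 ± 0.12) did not pass either.

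After ARFIP1 to PDLIM3 there are 11 genes, with a median of 0.73, of which 7 were called higher and 0 lower. CLCN3, a chloride-proton exchanger of endosomes, had 329, 300.2 and 359.5 in 10A/143B and 85.0, 128 and 98.4 in 468/143B. PRIMPOL, which reprimes DNA synthesis beyond lesions in nucleus and mitochondrion, had 236, 251 and 241 against 80.4, 88.0 and 91.8. Neither gene's groups overlapped (1.54 ± 0.15 and 1.33 ± 0.11).

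SH3RF1, a scaffold of JNK signalling, lies next to CLCN3 and had 495, 481 and 471 against 495, 478 and 491. Its groups overlapped and the difference was -0.02 ± 0.06. The other probe set of SH3RF1 gave -1.32 ± 0.56 and was not called, with 36.5 on replicate 1 of 468/143B against 243.9 and 257.8 on replicates 2 and 3. HPGD, which degrades prostaglandins, had 11.8, 15.0 and 9.00 against 14.7, 10.3 and 11.3, which is near the low end of the arrays. CFAP97 (1.29 ± 0.07), the glycosyltransferase gene GALNT7 (1.23 ± 0.09), HPF1, which directs PARP1 to serines (1.05 ± 0.07), the histone-mark reader ING2 (0.73 ± 0.16) and HMGB2, a DNA-bending protein (0.25 ± 0.06), were higher. The call of HMGB2 was lost with replicates 2 and 3 averaged, and a dim probe set of it was called lower (-0.49). CPE (0.29 ± 0.13) and PDLIM3 (0.14 ± 0.12) did not pass. A dimmer probe set of PDLIM3 was called higher at 0.83 ± 0.20, and a further one gave 0.20 and was not called. The other probe set of CPE gave -0.24 and was not called. SORBS2, the last of the list in map order and alone beyond PDLIM3, had 14.4, 17.6 and 13.9 against 25.6, 21.1 and 18.0. Its arrays did not overlap, but the difference of -0.26 ± 0.17 did not pass, and the signal was low in both cybrids.

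Grouped by what they do, the genes above 0 came from every group. Of the 4 genes of mitochondrial proteins, all 4 were called higher: SLC30A9, a zinc transporter (1.29 ± 0.12), GUF1, a GTPase of mitochondrial translation (1.10 ± 0.08), OCIAD1 (0.64 ± 0.07 on the probe set used, with a dim one at -1.18 also called) and LIAS, the lipoic acid synthase (0.63 ± 0.10). Over the whole list 74.1% were called higher, and over all genes 19.9%, so the counts by group describe the list and set no group apart. The 11 genes of chromatin and transcription had a median of 0.95, with 9 called higher and 0 lower. The 8 of membranes and traffic had a median of 1.27 (6 and 0), the 7 of the ubiquitin system 0.97 (5 and 0), the 7 enzymes of metabolism 0.35 (5 and 0) and the 6 of the cytoskeleton 0.84 (4 and 0). The 3 of DNA repair and replication and the 3 of RNA and protein modification were all called higher. Of the 5 of cilium and centriole, 3 were higher and 1 lower. The 4 of signalling had the lowest median, -0.11, with CAMK2D higher, ANXA5 lower and GAB1 and PGRMC2 not called.

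The other genes of chromosome 4 were counted in the same way. With a mean log2 level above 7 over all 6 arrays, 221 genes outside the list had a median of 0.58 and quartiles of 0.25 and 1.01, and 196 of them (88.7%) lay above 0. Of these 221, 164 were called higher and 12 lower (74.2% and 5.43%), where 34.1% and 29.9% of genes of other chromosomes above level 7 were. The 46 listed genes above that level had a median of 0.99. The 7645 genes of other chromosomes above it had a median of 0.02, with 51.1% above 0. The spread was alike, with an SD of 0.69 over the 267 genes of chromosome 4 and 0.71 elsewhere, while the 10th percentile was -0.02 against -0.76 and the 90th 1.62 against 1.02. The 12 listed genes at or below level 7 had a median of 0.42, with 9 above 0. Genes outside the list at or below it, 514 in number, had a median of 0.02, against -0.04 for 11296 such genes elsewhere. Chromosome 4 was picked for this shift, so no test is given.

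**Figure D2:**
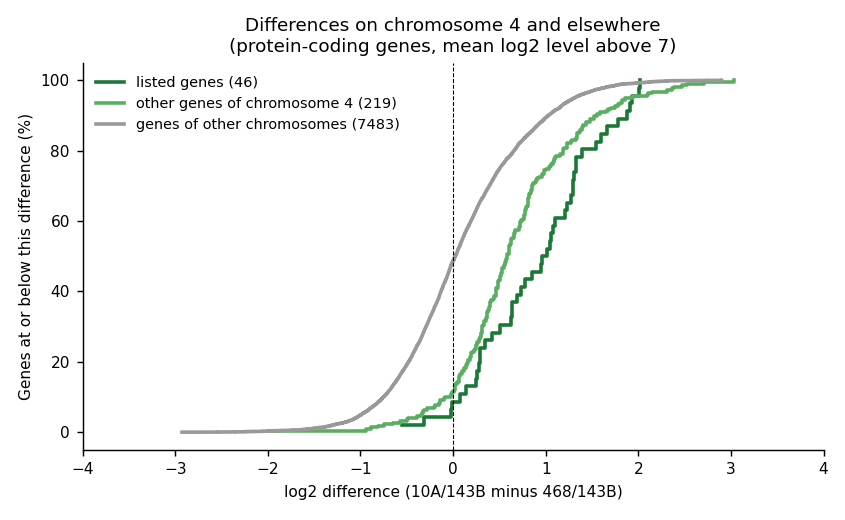
Cumulative percent of protein-coding genes (vertical axis), all with a mean level above 7, by log2 difference, 10A/143B minus 468/143B, for the listed chromosome 4 genes (46), other chromosome 4 genes (219) and genes of other chromosomes (7483). Both chromosome 4 curves lie to the right of the curve for other chromosomes over most of their length, with medians of 0.99, 0.58 and 0.02 in that order.

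Read in map order, no limit between the stretches, which the gene list had set, parted the values fully into a low and a high side. Single genes scattered with an SD of 0.69 over the 267 genes above level 7, so a step of that size could not have parted them fully. Whether there is a step was not tested. Limits inside a stretch were not searched for. Above level 7, the median difference was 0.46 for 40 genes before LAP3, 0.81 for 41 from LAP3 to OCIAD1, 0.55 for 99 between OCIAD1 and LARP7, 0.66 for 23 from LARP7 to RAB33B, 1.15 for 21 from there to ARFIP1 and 0.74 for 42 from there to PDLIM3. Beyond PDLIM3 only 1 gene lay above that level (1.11). The quartiles of these stretches overlap, from 0.17 to 0.65 before LAP3 and from 0.54 to 1.44 between RAB33B and ARFIP1. Over all measured genes, dim ones included, the medians were lower, from 0.11 to 0.31 in the first 6 stretches and -0.075 for the 17 genes beyond PDLIM3.

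Means over runs of 20 neighbouring genes above level 7 lay above 0 for all 248 runs of chromosome 4. The lowest was 0.30, from TSPAN5 to LEF1 on the long arm, and the highest 1.11, from ANKRD50 to SMARCA5. On the 22 other chromosomes with such runs, 59.6% of 7218 runs lay above 0. Chromosome 13 also had all of its 145 runs above 0, from 0.23 to 0.63, and chromosome 18 had 97.1% of 104, while chromosome 16 had 0.904% of 332 and chromosome 19 had 4.28% of 397. Runs as high as the middle of chromosome 4 were not confined to it: the median run of chromosome 4 was 0.71, and the highest run exceeded that on 5 other chromosomes, with 1.02 on chromosomes 3 and 15. Runs that share genes are not independent, and all rest on the same 6 arrays.

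**Figure D3:**
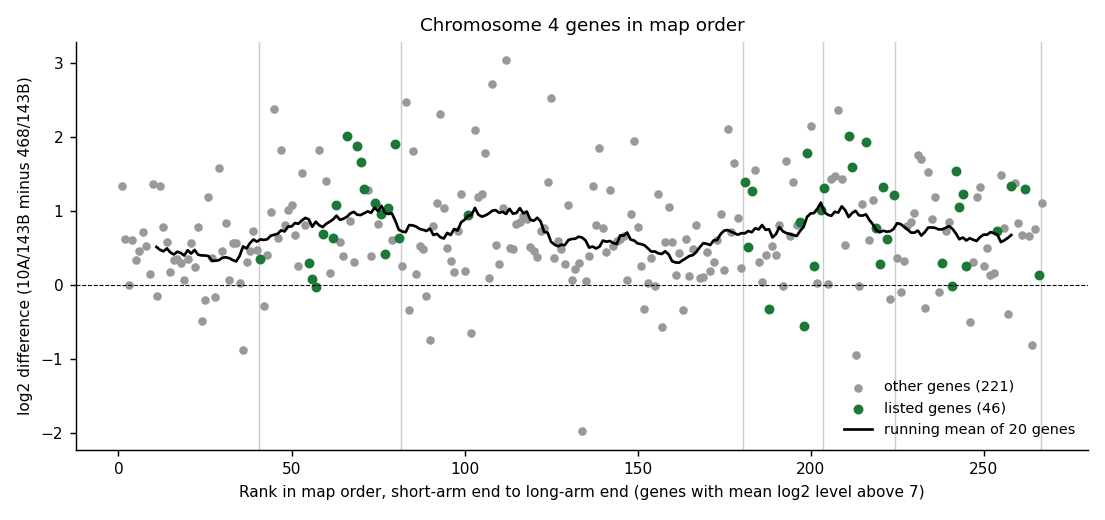
Log2 difference, 10A/143B minus 468/143B, of the 267 chromosome 4 genes with a mean log2 level above 7, by rank in map order (green listed genes, grey other genes; black line the running mean of 20 genes; grey vertical lines the limits between the stretches named in the text). The running mean stays between 0.30 and 1.11 along the whole chromosome, with single genes scattered widely around it.

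Next to each other, genes had unlike differences. The correlation of the differences of adjacent chromosome 4 genes above level 7 was 0.04 (267 genes, which share the 6 arrays), and on other chromosomes it ran from -0.04 to 0.33. Such a correlation leaves out any shift that all these genes share. Between successive listed genes the median size of the step was 0.70 over 57 steps, and 13 steps were at least 1. The SD of the differences over all 58 genes was 0.70. Pairs of genes far apart were not compared, so the steps do not tell neighbours from other pairs. For 15 successive pairs with no measured gene between, the median step was 0.91. Among these 15, the largest was from JADE1 (1.79) to SCLT1 (-0.57), followed by that from USP38 (2.02) to GAB1 (0.10) and that from SH3RF1 (-0.02) to CLCN3 (1.54). Each of these steps holds only for the probe sets used, since other probe sets gave 1.98 for SCLT1, 1.28 for USP38, 0.88 for GAB1, -1.32 for SH3RF1 and 1.02 for CLCN3.

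Genes whose starts lie within 1000 bases of each other on opposite strands are the closest neighbours, and 5 listed genes had such a partner, in each case outside the list. ZGRF1, which starts 234 bases from LARP7 in the window printed above, differed by -0.09 ± 0.21 where LARP7 had 1.39 ± 0.12. C4orf33, 173 bases from SCLT1, differed by 0.06 ± 0.16. RPL9, a bright ribosomal protein gene 134 bases from LIAS, differed by 0.16 ± 0.05, where LIAS had 0.63. TIGD4 (-0.39 ± 0.21), the partner of ARFIP1, and LOC101929762 (-0.21 ± 0.23), that of USP53, were dim in both cybrids. Over 7 such pairs on chromosome 4 with both genes above level 7, both differences were above 0 in 6, and the median gap within a pair was 0.58.

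Of the 221 genes outside the list, those with the largest differences were the chemokine gene CXCL8 (3.04 ± 0.12), the Hippo pathway gene MOB1B (2.71 ± 0.11), the anthrax toxin receptor gene ANTXR2 (2.53 ± 0.12), DCUN1D4 of cullin neddylation (2.47 ± 0.12) and LCORL (2.38 ± 0.15). All but LCORL lie between OCIAD1 and LARP7. Level 7 is a mean over both cybrids, and these genes of largest difference lay below it in 468/143B and passed through 10A/143B. Intensities in 468/143B were 49.9 to 64.4 for CXCL8, 48.8 to 56.9 for MOB1B, 47.5 to 52.7 for DCUN1D4 and 36.3 to 47.8 for LCORL. ANTXR2 had 592, 626 and 635 in 10A/143B and 77.2, 109.9 and 97.0 in 468/143B, and its 3 other probe sets gave 1.53, 2.78 and 3.36. At the other end, PLAC8 had 43.7, 54.6 and 54.9 against 244, 265 and 232 (-1.97 ± 0.13) and lies in the same stretch as CXCL8. PLAC8 was below level 7 in 10A/143B and passed through 468/143B. It was followed by HHIP, an inhibitor of hedgehog ligands (-0.94 ± 0.09), FAM200B (-0.88 ± 0.19), ANKRD37 (-0.81 ± 0.13) and CHIC2 (-0.74 ± 0.06). Other probe sets gave smaller values for DCUN1D4 (0.70 and 0.81) and LCORL (0.76 and 1.73), and 2.07 for CXCL8. A further probe set of HHIP gave 2.09 and those of FAM200B gave 0.38 and 0.07, so neither gene's direction is settled.

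The difference depended on the probe set and its signal. The 58 genes had 180 probe sets, with 11 genes on 1 probe set and 47 on several, SORBS2 with the most (10). Of the 74 probe sets above level 7, 67 lay above 0, with a median of 0.96, and 58 were called higher and 2 lower, beside 34.7% and 27.5% of all probe sets above that level. Of the 106 dimmer ones, 70 lay above 0, with a median of 0.27, and 39 were called higher and 5 lower, beside 11.8% and 5.9% of all dim probe sets. At least 1 probe set was called higher for 51 of the 58 genes and for 24.7% of all genes, and a gene with more probe sets has more chances of a call. The 7 without one were ANXA5, CPE, HPGD, INTU, SH3RF1, SORBS2 and TMEM184C.

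For 5 genes, HMGB2, JADE1, KLF3, OCIAD1 and SCLT1, probe sets were called in both directions, and these genes have no settled direction over the whole gene. Among 17 genes with several probe sets above level 7, the median range between them was 0.38. The probe sets lay close together for FRYL (1.89 and 1.91), POLR2B, LRBA (1.32 and 1.36), GALNT7 (1.23 and 1.33) and PDS5A (2.01 and 2.16). They lay furthest apart for JADE1 and for SLAIN2 (-0.48 to 1.55). Where in the transcript each probe set lies was not used here.

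**Figure D4:**
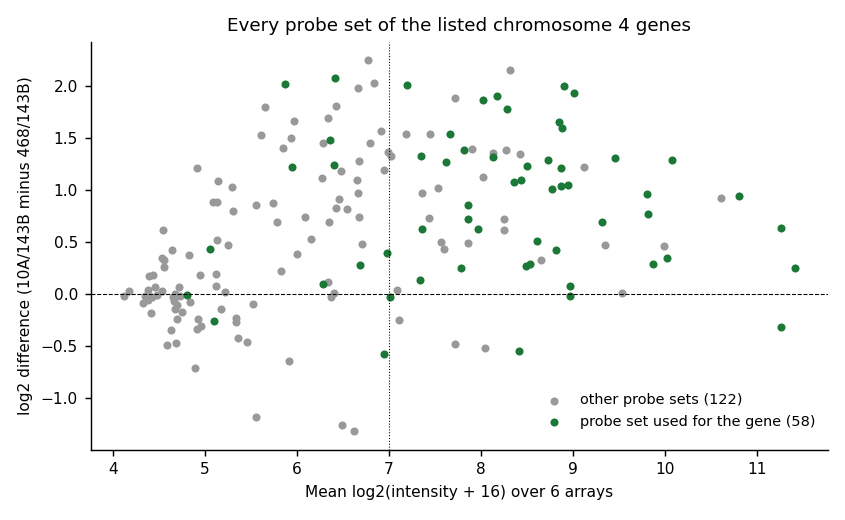
Log2 difference, 10A/143B minus 468/143B, of all 180 probe sets of the 58 genes against their mean log2(intensity + 16) over 6 arrays (green the brightest probe set of each gene, which stands for the gene, grey the other 122; the dotted line marks level 7). Above level 7, 67 of 74 points lie above 0, and below it many lie around 0.

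Gene length moved with the differences as well. In 3 equal classes of length among protein-coding genes above level 7, genes of other chromosomes had medians of -0.20, 0.03 and 0.35 from the shortest to the longest. The listed genes had medians of 0.75 (4 genes), 1.05 (19) and 1.05 (23), and the other chromosome 4 genes 0.37 (56), 0.55 (65) and 0.78 (98). Only 4 of the 46 listed genes thus fell in the shortest class. With the trend on length taken off, the median was 0.82 for the listed genes, 0.46 for other genes of chromosome 4 and -0.02 for genes of other chromosomes. By class, these medians were 0.89, 1.01 and 0.71 for the listed genes and 0.56, 0.49 and 0.36 for the other genes of chromosome 4.

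**Figure D5:**
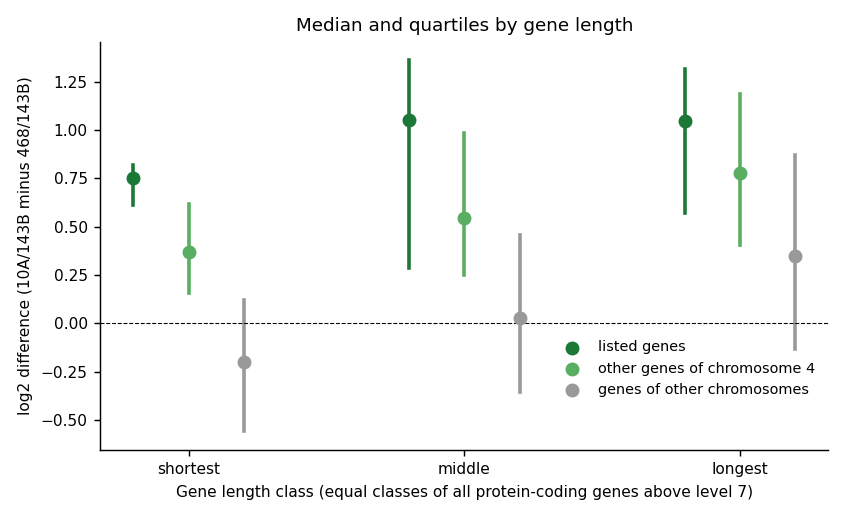
Median log2 difference, 10A/143B minus 468/143B, with lines from the lower to the upper quartile, in 3 equal classes of gene length for the listed chromosome 4 genes, the other chromosome 4 genes and genes of other chromosomes (protein-coding, above level 7). In each class both chromosome 4 medians lie above that of other chromosomes, for example 0.37 against -0.20 among the shortest genes.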

How the data were processed

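The deposited file holds 1 array intensity per probe set and sample, on a linear scale from 1 to 13125. Their summary method and scaling: not given in the sources used here. No detection calls were used. Samples were grouped and numbered by source name, whose numbers differ from those in the titles. Intensities were used as deposited, as log2(intensity + 16). Of 41091 probe sets with a single symbol in the platform annotation (controls left out), 41037 symbols were updated through Entrez identifiers with RefSeq (GRCh38.p14), which also gave chromosome, gene order and relative length, as the array file names no build. A gene is its probe set with the highest mean, 19775 genes in all. limma 3.58.1 in R 4.3.3 (lmFit, eBayes with intensity trend, Benjamini-Hochberg over all genes at 0.05) compared the cybrids, and the fit was tested on simulated data. The members, stretches and gene lists were chosen with earlier results of these data known. All 60 genes could be named. Array values are given for the 2 largest and the smallest difference of each stretch with at least 4 members, a stretch's only member and all members lower in 10A/143B. Of other chromosome 4 genes above level 7 the 5 largest and 5 smallest are named. Level 7 is a mean log2 over all arrays. Same-numbered arrays of the cybrids deviated together (correlations of 0.30, 0.23 and 0.21 over genes), so the numbers were taken as pairs in an alternative fit.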

Additional observations from a re-analysis of the deposited data

How the results depend on the processing

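The median of 0.96 over the listed chromosome 4 genes was 0.76 with an offset of 64, 0.60 with probe sets of a gene averaged and 0.57 over single probe sets, and it moved by less than the spread between replicates elsewhere. Genes called went from 7042 to 4483 with replicates 2 and 3 averaged and to 12744 as single probe sets, where 97 probe sets of the listed genes were higher and 7 lower. The 2 listed genes lower became 1 with the mean of probe sets, 5 without _x_at and _s_at probe sets and 0 averaged, and the 43 higher became 41, 35 and 39, and 39 with median centring. With the replicate number as a block, 7750 genes were called, 43 listed genes higher and 3 lower. Each number has 1 array per cybrid, so the differences of that fit equal those of the main fit by design. Its medians therefore could not move. Over the fits that leave out 1 array, calls ran from 5641 to 8061, listed genes higher from 41 to 44 and lower from 2 to 3, and the median from 0.88 to 0.95. Medians of stretches over all measured genes moved most with the level filter, to 0.46, 0.81, 0.55, 0.66, 1.15, 0.74 and 1.11 in map order, the last from -0.075 and on 1 gene. The second (LAP3 to OCIAD1, 0.31) was 0.52 with an offset of 1, 0.19 with 64 and 0.20 with median centring. The fourth (LARP7 to RAB33B, 0.27) was 0.45, 0.18 and 0.17, 0.20 with quantile normalization and 0.24 to 0.35 leaving out an array, the highest without replicate 1 of 10A/143B. The last, beyond PDLIM3, was -0.21 with an offset of 1, -0.18 with median centring, -0.16 with the length trend removed and -0.15 to 0.013 leaving out an array, turning sign without replicate 1 of 468/143B. SCLT1 turned to 0.53 with the mean of its probe sets and 0.19 as their median, and ATP8A1 to -0.024 as the latter. PGRMC2, not called at -0.55, lay at 0.28 in both of these and at 1.10 without _x_at and _s_at probe sets. OTUD4 (1.94) fell to 0.71 with the mean, 0.45 as the median and 0.02 without _x_at and _s_at, and SH3RF1 (-0.02) to -0.67 in the first 2. Over all values of single named genes under alternatives, the 3 turns of SCLT1 and ATP8A1 just given aside, 41 moved beyond the spread between replicates and 254 did not. Among the 254 are those of the block fit, which could not move. The 3 turns were not the only turns of sign. Those of PGRMC2 are among the 41, and GAB1, KLF3 and HPGD, all near 0, turned sign in some fits within the spread. The cause of these changes was not tested. The number of arrays and the absence of detection calls limit all values of dim genes.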
